A study of Homo sapiens with 6 samples.

Results

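The 8 genes described here encode the signaling steps that link an activated receptor to PI3K, AKT and RAS. They are the catalytic subunits PIK3CA and PIK3CB, the regulatory subunits PIK3R1 and PIK3R3, the kinases AKT1 and AKT2, and the RAS exchange factors SOS1 and SOS2. They were chosen by symbol from the 16306 genes of the deposited gene table. All 8 were listed, and all 8 were among the 12620 genes with enough counts to be tested.

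Class I PI3K is a pair of a catalytic and a regulatory subunit. The regulatory subunit binds phosphorylated receptors or their adaptors, and the catalytic subunit then makes the membrane lipid PIP3, which recruits AKT. SOS proteins reach the same receptors through the adaptor GRB2 and load RAS with GTP, and RAS in turn can activate PI3K. In lung adenocarcinoma with mutant EGFR these are the main routes downstream of the receptor.

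RNA-seq was done on PC9, an established human lung adenocarcinoma line that carries an activating deletion in EGFR. The groups were 3 samples with a negative control shRNA (sh-NC) and 3 samples with an shRNA against RBM10 (shRBM10), an RNA-binding protein that regulates splicing. The labels give no time point, and they do not say which of the RBM10 shRNAs of the study was used or whether the 3 samples of a group were separate cultures, so the spread between them may be technical. The column names tie the sh-NC libraries to replicates 1 to 3 and 1 shRBM10 library to replicate 1, called library A. Libraries B and C are the other shRBM10 columns. Their names share the stem of library A but equal no sample title, and the titles given to shRBM10 replicates 2 and 3 are not among the column names, so it is not certain that these columns are those samples.

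Total counts per library lay between 16606390 and 18864243. RBM10 itself, which lies on chromosome X at 47144869-47186813 (GRCh38), had normalized counts of 1431, 1183 and 1469 under sh-NC (replicates 1 to 3), against 537, 514 and 672 under shRBM10 (A to C). Its log2 fold change was -1.24 ± 0.23 (SE), with an adjusted p of 0.1 by edgeR's quasi-likelihood test and 0.00157 by DESeq2. The protocol text names retina as the source, unlike the other labels, and 2 of 5 retina markers were not listed. CRX and PDE6B did not exceed 3.08 normalized counts in any library, and NRL lay between 62.3 and 158. All 9 epithelial markers were listed, keratins KRT8 and KRT18 being the most abundant. NKX2-1, a defining factor of lung epithelium, lay between 0 and 2.05, SFTPB between 0 and 2.71 and NAPSA between 9.24 and 16.4, so these markers of lung identity were at or near 0. Summed endothelial markers lay between 99.96 and 188 normalized counts in sh-NC and between 49.3 and 69.0 in shRBM10, mostly from CDH5, with PECAM1 at 3.08 or less. Summed retina markers, almost all NRL, lay between 85.7 and 159 and between 63.2 and 77.8. The groups overlapped for the summed immune and fibroblast markers. The immune sum was almost all CD68, between 1810 and 3344 normalized counts, while PTPRC, the pan-leukocyte marker, did not exceed 6.71. Of the fibroblast markers, COL1A1 lay between 38.3 and 178. The part of these markers in the results was not tested.

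Some libraries stood apart before any gene was compared. The 3 sh-NC libraries were not alike, since a chi-square over genes, divided by its degrees of freedom, was 2.93 for replicates 1 and 3 and at least 29.7 for every other pair. The TMM factor, which rescales library sizes, was 0.738 for sh-NC replicate 2 and between 1.03 and 1.08 for the other 5 libraries. Within shRBM10, library C was closer to sh-NC replicates 1 and 3 (29.8 and 30.2) than to library A (97.9) or B (53.9).

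The 8 genes differ in base composition, which matters because the libraries differed in how counts depended on GC content. In GENCODE release 29, GC content of the transcript used was 34.8% for PIK3CA, 37.8% for SOS1, 39.4% for PIK3CB, 40.3% for PIK3R1 and SOS2, 45.8% for PIK3R3, 58.3% for AKT2 and 58.7% for AKT1. The middle 150 bases of the longest coding exon show the contrast for the lowest and the highest members. They are written 5′ to 3′ on the strand of the gene in GRCh38 coordinates, with G and C in capitals.
PIK3CA, chr3:179198926-179199075: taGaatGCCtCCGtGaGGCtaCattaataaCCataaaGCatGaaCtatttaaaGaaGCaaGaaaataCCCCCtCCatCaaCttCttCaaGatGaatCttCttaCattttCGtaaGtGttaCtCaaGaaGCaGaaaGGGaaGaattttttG
SOS1, chr2:39022822-39022971: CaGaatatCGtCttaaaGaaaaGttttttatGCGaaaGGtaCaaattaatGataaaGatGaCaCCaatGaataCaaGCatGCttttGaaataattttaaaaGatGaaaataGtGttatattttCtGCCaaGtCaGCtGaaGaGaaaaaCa
AKT2, chr19:40235922-40236071: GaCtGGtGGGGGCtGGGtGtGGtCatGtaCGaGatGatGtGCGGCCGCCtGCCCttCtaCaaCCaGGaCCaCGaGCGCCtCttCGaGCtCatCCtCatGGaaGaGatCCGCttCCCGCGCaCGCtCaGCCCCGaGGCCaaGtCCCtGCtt
AKT1, chr14:104772910-104773059: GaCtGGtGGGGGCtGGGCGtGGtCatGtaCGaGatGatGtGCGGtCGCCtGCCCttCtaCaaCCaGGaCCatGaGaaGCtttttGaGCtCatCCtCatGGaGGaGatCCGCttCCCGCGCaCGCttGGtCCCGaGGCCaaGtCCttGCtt
The PIK3CA window lies in exon 2 on the plus strand and holds 53 G or C bases of 150 (35.3%). The SOS1 window lies in exon 11 on the minus strand and holds 42 (28.0%). The AKT2 window, in exon 11 on the minus strand, holds 95 (63.3%), and the AKT1 window, in exon 10 on the minus strand, holds 89 (59.3%). Position by position, the AKT1 and AKT2 windows were identical at 137 of 150 bases, with a longest shared run of 26 bases. How reads that match related genes were divided is not given in the sources used here, so the counts of close relatives carry that uncertainty.

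Compared per transcript length, by the TPM values that the authors deposited, the AKT genes were the most abundant of the set and PIK3R1 the least. In sh-NC, AKT2 had 82.9 ± 24.0 TPM (SD, n = 3) and AKT1 80.2 ± 15.0, which did not differ beyond their spread. PIK3R3 had 6.98 ± 3.72, PIK3CB 4.18 ± 2.90, SOS1 1.70 ± 1.31, PIK3CA 1.14 ± 0.81, SOS2 0.987 ± 0.759 and PIK3R1 0.250 ± 0.183. Below the AKT genes, each neighbouring pair of levels overlapped within 1 SD, although PIK3R3 and PIK3CB lay far under both AKT genes in each of the 4 libraries with TPM. The order was identical in sh-NC replicates 1 and 3 and in shRBM10 library A. In sh-NC replicate 2 AKT1 (62.9 TPM) exceeded AKT2 (55.4 TPM), and PIK3CA (0.24 TPM) exceeded SOS1 (0.21 TPM). TPM of libraries B and C was not used here.

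PIK3CA and PIK3CB, the catalytic subunits, were both higher on average in shRBM10, but the groups overlapped. PIK3CA encodes p110 alpha and lies on chromosome 3 at 179148114-179240093. Its normalized counts were 132, 37.0 and 97.5 for sh-NC replicates 1 to 3, against 306, 216 and 111 for libraries A to C. Libraries A and B stood above every sh-NC library, whereas library C lay between sh-NC replicates 1 and 3. The log2 fold change was 1.24 ± 0.49 (adjusted p = 0.182, edgeR). PIK3CB encodes p110 beta and lies on chromosome 3 at 138652699-138834938. Its normalized counts were 383, 105 and 362 for sh-NC, against 875, 646 and 303 for shRBM10. Library C again fell among the controls, below sh-NC replicates 1 and 3, and the log2 fold change was 1.09 ± 0.51 (adjusted p = 0.212, edgeR). In bulk RNA such differences cannot tell fewer cells with a transcript from less of it per cell.

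PIK3R1 and PIK3R3 encode regulatory subunits that hold and stabilise the catalytic subunit. PIK3R1, which encodes p85 alpha (chromosome 5, 68215720-68301821), was the rarest member, with raw counts of 33, 5 and 34 for sh-NC, against 105, 68 and 23 for shRBM10. After normalization these were 29.9, 6.85 and 30.7 against 108, 65.15 and 22.1, so library C was below 2 of the 3 controls. Its log2 fold change of 1.48 ± 0.62 (adjusted p = 0.191, edgeR) rested on these low counts. PIK3R3, which encodes p55 gamma (chromosome 1, 46040140-46133036), had normalized counts of 637, 368 and 671 for sh-NC, against 1071, 928 and 782 for shRBM10. Every shRBM10 library exceeded every sh-NC library, with a log2 fold change of 0.73 ± 0.28 (adjusted p = 0.177, edgeR).

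AKT1 and AKT2, the kinases recruited by PIP3, were the 2 members with lower counts in shRBM10, and in both the groups did not overlap. AKT1 (chromosome 14, 104769349-104795751) had normalized counts of 3109, 4363 and 3065 for sh-NC replicates 1 to 3. Those of libraries A to C were 1884, 2284 and 2752. Library C was the closest to the controls and sh-NC replicate 2 the highest of all. The log2 fold change was -0.61 ± 0.25 (adjusted p = 0.188, edgeR). AKT2 (chromosome 19, 40230317-40285536) had 3376, 3816 and 3175 against 2168, 2440 and 3039, in the same order of libraries within shRBM10. Its log2 fold change was -0.44 ± 0.23 (adjusted p = 0.247, edgeR). Without TMM scaling, as shares of library size, the AKT2 groups overlapped.

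SOS1 and SOS2, the exchange factors that load RAS with GTP, differed in how far the groups separated. SOS1 (chromosome 2, 38981396-39124345) had normalized counts of 275, 49.3 and 226 for sh-NC, against 475, 388 and 215 for shRBM10. Library C was below sh-NC replicates 1 and 3, and the log2 fold change was 0.96 ± 0.54 (adjusted p = 0.279, edgeR). SOS2 (chromosome 14, 50117120-50231558) had 109.7, 17.8 and 92.95 in sh-NC and 277, 232 and 129 in shRBM10. All 3 shRBM10 libraries exceeded all sh-NC libraries, and the log2 fold change was 1.51 ± 0.56 (adjusted p = 0.172, edgeR). The raw SOS2 count in sh-NC replicate 2 was only 13.

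**Figure D1:**
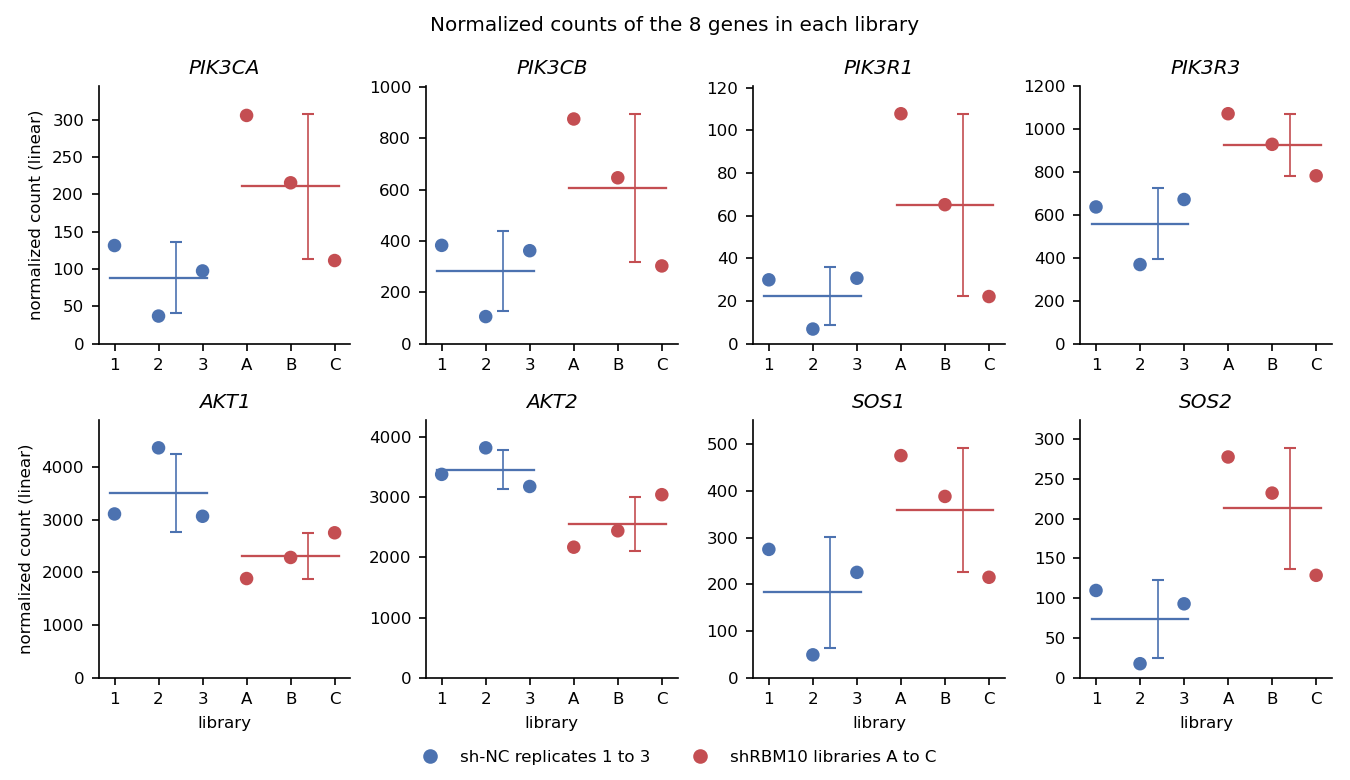
Normalized count (linear scale from 0) of each of the 8 genes in the 3 sh-NC libraries (blue, replicates 1 to 3) and the 3 shRBM10 libraries (red, A to C), with horizontal lines at the group means and bars of 1 SD. PIK3R3 and SOS2 in shRBM10 sit above all sh-NC libraries, AKT1 and AKT2 sit below them, and in the other 4 genes library C overlaps the controls.

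None of the 8 genes (0 of 8) passed the limits of an adjusted p under 0.05 and a log2 fold change over 1 in size by edgeR, where 0.0158% of all genes tested did (2 genes). DESeq2 and limma-voom also called 0 of 8, and DESeq2 called 3.64% of its genes as higher and 1% as lower. At an unadjusted p under 0.05 with no fold limit, edgeR gave 5 of the 8, with PIK3CA, PIK3R1, PIK3R3 and SOS2 higher and AKT1 lower, against 15.7% of all genes higher and 8.6% lower. DESeq2 gave 6 of 8 (25.7% of all genes) and limma-voom 4 of 8 (22.0%) at that unadjusted level, where edgeR gave 24.3% of all genes. With an unadjusted p under 0.05 and a log2 fold change over 1 in size, the count was 3 of 8 (PIK3CA, PIK3R1 and SOS2, all higher), where 10.1% of all genes were past them as higher and 1.53% as lower. The share of higher genes among those past these limits was 86.8% over all genes, and 45.1% once the GC trends were removed.

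Groups that did not overlap were seen in 4 of 8 members, 2 higher (PIK3R3 and SOS2) and 2 lower (AKT1 and AKT2). Over all genes tested 13.8% were higher and 16.2% lower without overlap. Among genes within 2 points of each member's GC content, the share separated in the same direction was larger. It was 21.4% for PIK3R3, 23% for SOS2, 30% for AKT1 and 28.9% for AKT2. The exact two-sided permutation p for each of these 4 genes was 0.1, the smallest that 3 libraries against 3 can give. The median log2 fold change was 1.03 over the 8 members and 0.03 over all genes tested, and it describes 6 genes above 0, where 51.6% of all genes were, and 2 below.

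The spread within a group was as large as the difference between groups for several members, and it followed 1 library in each group. In sh-NC replicate 2, the 6 non-AKT members stood at between 0.176 (SOS2) and 0.563 (PIK3R3) of the mean of replicates 1 and 3. AKT1 stood at 1.41 and AKT2 at 1.17 of that mean. In shRBM10, library C stood at between 0.255 (PIK3R1) and 0.782 (PIK3R3) of the mean of A and B for the non-AKT members, and at 1.32 for both AKT1 and AKT2. The 6 non-AKT members thus had their lowest value in sh-NC replicate 2 and their highest in library A, and the 2 AKT genes the reverse.

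Without sh-NC replicate 2, every log2 fold change kept its sign and 7 of the 8 were smaller in size. SOS1 went to 0.43, PIK3CB to 0.62, PIK3CA to 0.79, PIK3R3 to 0.42, SOS2 to 0.98 and PIK3R1 to 1.00, while AKT1 went to -0.50 and AKT2 stayed at -0.44. By edgeR, AKT1 and SOS2 were then the 2 members with an unadjusted p under 0.05, at adjusted p of 0.183 and 0.168, where 24.4% of all genes passed unadjusted. Neither was past the fold limit of 1 (0 of 8). Without library C the values were larger, 1.82 for PIK3R1, 1.69 for SOS2 and -0.79 for AKT1 among them, and the smallest adjusted p of any member was 0.0779, for AKT1 (edgeR). Without library A they were smaller again, 0.71 for SOS1, 0.74 for PIK3CB and 0.91 for PIK3R1. At an unadjusted p under 0.05, edgeR gave 0 of 8 without library A (8.78% of all genes) and 0 of 8 without library B (11%), against 5 with all 6 libraries. No member passed the adjusted threshold in any of these fits.

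In sh-NC replicate 2 and libraries A and B, the AKT genes, which have the highest GC content, deviated in the direction opposite to the other members. Across all 12569 genes with a GC value, counts relative to the mean of the 6 libraries changed by 0.13, 0.38 and 0.14 log2 units per 10 points of GC in sh-NC replicates 1 to 3. The slopes were -0.49, -0.31 and 0.15 in libraries A to C, so A and B leaned towards low-GC genes and C leaned as the sh-NC libraries did. Over the 8 members alone, the correlation of this deviation with GC was 0.93 in sh-NC replicate 2 and -0.94 in both library A and library B. It was 0.18 and 0.75 in sh-NC replicates 1 and 3 and 0.29 in library C. These are descriptions over 8 genes that share their libraries, and the GC values fall into 2 AKT genes and 6 others.

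**Figure D2:**
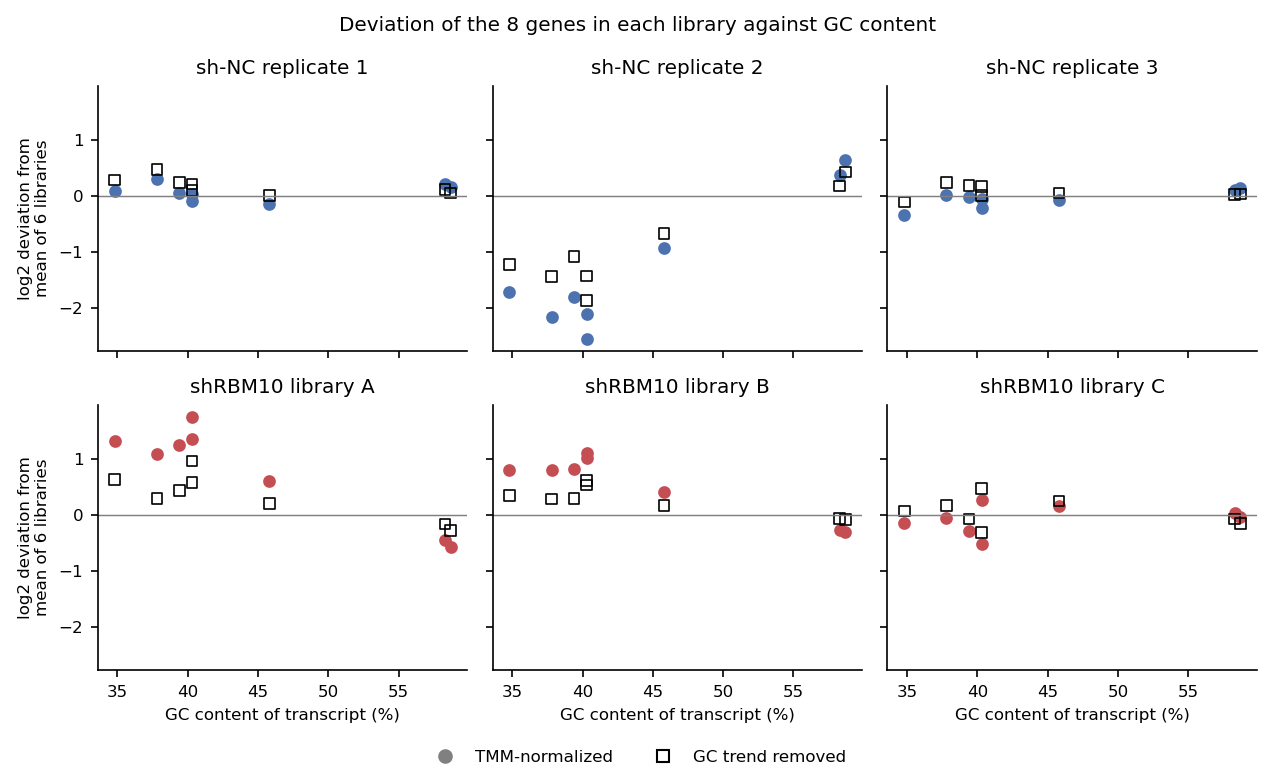
Log2 deviation of each of the 8 genes from its mean over the 6 libraries, against the GC content of its transcript (%), 1 panel per library, with TMM-normalized values as filled circles and values after removal of the GC trend as open squares. In sh-NC replicate 2 the low-GC genes lie far below the line and in libraries A and B above it, while the 2 AKT genes near 58% GC lie on the other side.

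The same gradient ran through all genes. The median log2 fold change was 0.77 for genes under 40% GC, 0.60 between 40% and 45%, -0.29 between 55% and 60%, and -0.35 at 60% or more. Genes within 2 points of the GC content of SOS2 had a median of 0.72, and those near AKT1 a median of -0.30. Among genes near SOS1 the median was 0.78, against its own 0.96, and 65.7% of those genes lay below it. The share of genes of like GC below the member was 95.1% for SOS2, 94.6% for PIK3R1 and 88.7% for PIK3CA. It was 76.3% for PIK3CB, 75% for PIK3R3, 17.9% for AKT1 and 34% for AKT2. A gradient also ran within sh-NC. Replicate 2 against replicates 1 and 3 had a median log2 difference of -0.45 for genes under 40% GC and 0.16 at 60% or more. Whether the gradient between the groups came from the libraries or from the knockdown cannot be told apart in this design, since libraries A and B are both shRBM10.

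After the GC trend of each library was removed over all genes, all 8 fold changes kept their sign and became smaller. SOS2 had a log2 fold change of 0.82 ± 0.43, PIK3R1 0.68 ± 0.45, PIK3CA 0.58 ± 0.36, PIK3R3 0.38 ± 0.21, PIK3CB 0.34 ± 0.35 and SOS1 0.26 ± 0.42. AKT1 had -0.35 ± 0.17 and AKT2 -0.19 ± 0.14. None of the 8 (0 of 8) passed the adjusted limits (0.0398% of all genes) or the unadjusted limits with the fold limit (2.1% higher and 2.56% lower). At an unadjusted p under 0.05 alone, edgeR again gave 0 of 8, where 18.5% of all genes passed, and adjusted p-values lay between 0.304 (AKT1) and 0.743 (SOS1).

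**Figure D3:**
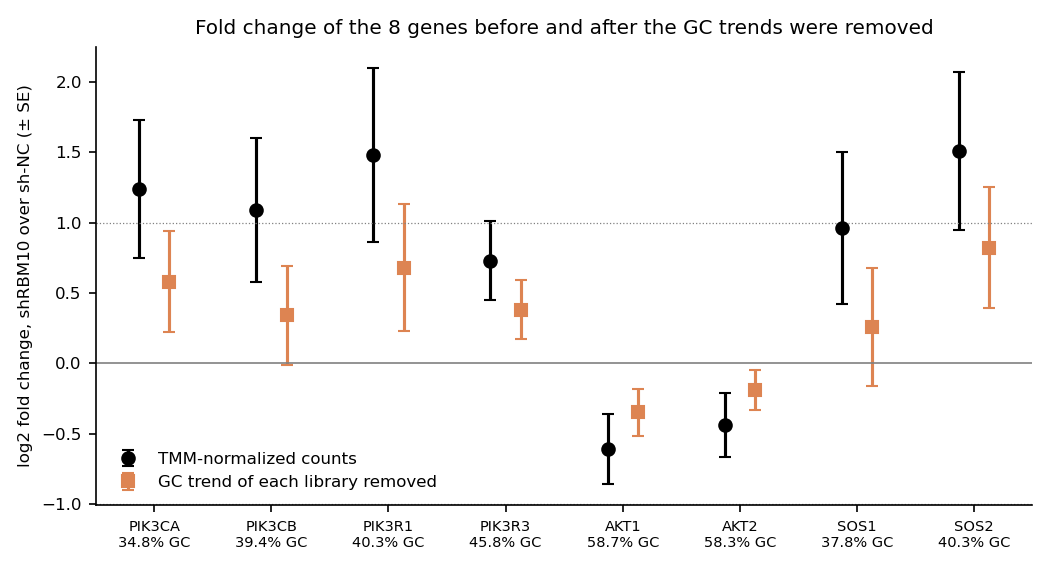
Log2 fold change of shRBM10 over sh-NC with its standard error for each of the 8 genes, from TMM-normalized counts (black circles) and after the GC trend of each library was removed (orange squares), with dotted lines at the fold limit of 1 and the GC content of each gene under its name. The values of the 6 low-GC genes move towards 0, from 1.51 to 0.82 for SOS2 and from 0.96 to 0.26 for SOS1.

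The same 4 members remained without overlap after the GC trends were removed, against 12.9% of all genes higher and 17.6% lower. SOS2 had GC-corrected counts of 124, 29.3 and 107 for sh-NC, against 160, 164 and 149 for libraries A to C. The shRBM10 libraries were then close to each other, and sh-NC replicate 2 stood far below all other libraries. SOS1 had 307, 81.5 and 260 for sh-NC, against 272, 269 and 249 for shRBM10. These groups overlapped, and sh-NC replicate 1 was the highest of the 6 libraries after the correction. PIK3R3 had 699, 438 and 726 against 802, 788 and 830, and AKT1 had 2888, 3737 and 2853 against 2294, 2634 and 2511.

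A ratio of 2 related genes within a library does not depend on how libraries are scaled, and of the 4 pairs compared SOS1 and SOS2 had the ratio with the least spread within groups. The log2 ratio of SOS1 to SOS2 counts was 1.32, 1.43 and 1.28 in sh-NC replicates 1 to 3. Libraries A to C gave 0.78, 0.74 and 0.74. The ratio was thus lower in each shRBM10 library, library C included, and the sh-NC replicates, replicate 2 included, stayed within 0.15 of one another. The means were 1.34 ± 0.08 and 0.75 ± 0.02 (SD, n = 3 each), a difference of -0.59. The exact two-sided permutation p was 0.1, the smallest possible, and 0.4 after adjustment over the 4 pairs compared. The difference was -0.61 after the GC trends were removed and between -0.63 and -0.55 when any library was left out.

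Expressed as a share of the SOS1 and SOS2 counts together, SOS1 took 71.5% in sh-NC replicate 1 (exact 95% interval 66.9 to 75.7), 73.5% in replicate 2 (58.9 to 85.1) and 70.8% in replicate 3 (65.8 to 75.5). It took 63.2% in library A (59.6 to 66.7), 62.6% in library B (58.7 to 66.3) and 62.6% in library C (57.3 to 67.6). These intervals cover counting error only. The interval of sh-NC replicate 2 is wide because it holds 49 counts, and it overlaps all 3 of libraries A to C. The interval of sh-NC replicate 3 also overlaps all 3, and that of replicate 1 overlaps library C. SOS1 thus made up the larger share of the pair's counts in all 6 libraries, and a smaller one in shRBM10. These counts are not corrected for transcript length, which was 8517 bases for SOS1 and 5498 for SOS2.

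The other 3 pairs overlapped between groups as counted. The log2 ratio of AKT1 to AKT2 was -0.12, 0.19 and -0.05 in sh-NC and -0.20, -0.10 and -0.14 in shRBM10, a difference of -0.15 (exact permutation p = 0.2). Of the pair, AKT1 took between 46.5% and 53.3% of the counts. The log2 ratio of PIK3CA to PIK3CB was -1.54, -1.49 and -1.89 against -1.51, -1.58 and -1.44, a difference of 0.13 (exact permutation p = 0.5). After the GC trends were removed the PIK3CA to PIK3CB ratio was -1.52, -1.72 and -1.87 for sh-NC, against -1.39, -1.52 and -1.44 for shRBM10, a difference of 0.26 (exact permutation p = 0.1). These groups did not overlap, although sh-NC replicate 1 and library B were equal to 2 decimals, and the uncorrected difference ran from 0.01 to 0.20 when any library was left out. The log2 ratio of PIK3R1 to PIK3R3 varied most, with -4.39, -5.61 and -4.43 in sh-NC and -3.31, -3.82 and -5.12 in shRBM10 (difference 0.73, exact permutation p = 0.4). That difference was 0.37 after the GC trends were removed and between 0.33 and 1.25 when any library was left out, while that of the AKT pair was -0.15 and between -0.22 and -0.06.

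**Figure D4:**
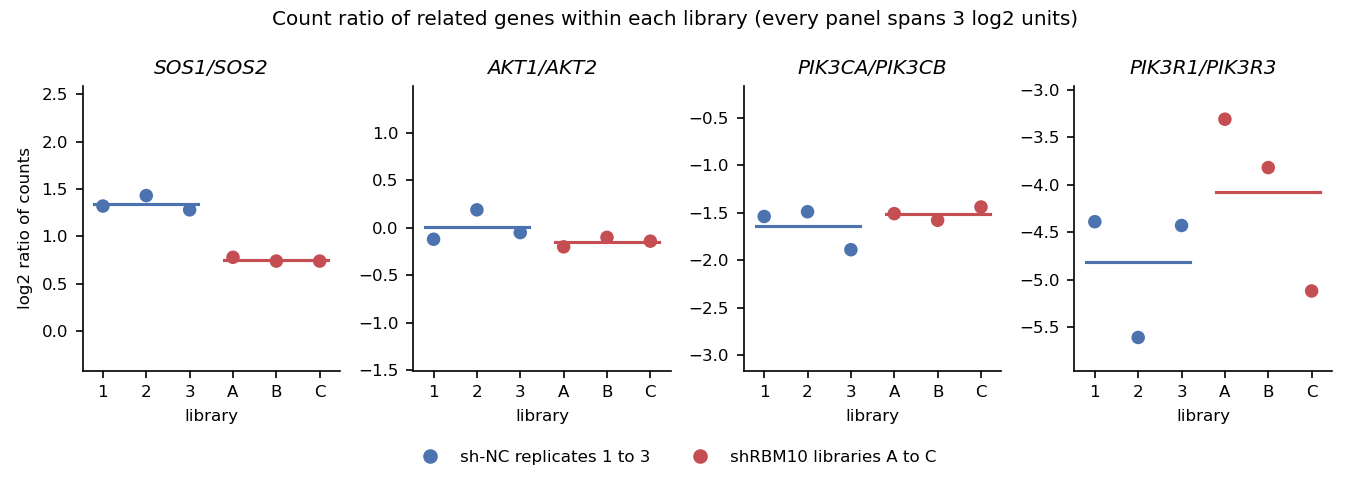
Log2 ratio of the counts of 2 related genes within each library, for 4 pairs, with the 3 sh-NC libraries in blue, the 3 shRBM10 libraries in red and lines at the group means; every panel spans 3 log2 units. The SOS1/SOS2 ratio averages 1.34 in sh-NC and 0.75 in shRBM10 with no overlap, while the other pairs overlap in these counts.

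RBM10 regulates splicing, so the use of transcripts was compared within each member. Of 7 members with more than 1 testable transcript, 1 passed an adjusted p under 0.05 by edgeR's diffSpliceDGE with a Simes p per gene, where 3.4% of 8348 genes did. At an unadjusted Simes p under 0.05 it was also 1 of 7, against 4.96%. It was SOS1 (adjusted p = 0.00195, and 0.00399 by the F test over the whole gene). This call rests on a transcript that entered the test only through the shRBM10 libraries, so it is given as a description and not as support for a change in usage. With at least 10 counts required in every library no SOS1 transcript was tested, and 0 members passed. SOS2 has only 1 listed transcript, NM_006939, and could not be tested. Transcripts of a gene share most of their reads, so counts per transcript are estimates, and many are not whole numbers.

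That transcript was the RefSeq transcript NM_001382394. Each sh-NC library had 0 estimated counts of it, against 75.4, 31.5 and 25.7 for libraries A to C. That was 16.3%, 7.78% and 11.5% of SOS1 in libraries A to C. A count of 0 allows a share of up to 0.990%, 8.33% and 1.20% in sh-NC replicates 1 to 3 (3 counts of the total, counting error only), so replicate 2 says little about it. The main transcript NM_005633 took 70.2%, 0% and 65.0% in sh-NC and 51.3%, 54.4% and 52.9% in shRBM10. In sh-NC replicate 2 all 36 SOS1 counts were assigned to NM_001382395, which had 0 counts in the other 5 libraries and was not tested. XM_011533064 took 29.8% and 35.0% in sh-NC replicates 1 and 3 and between 32.4% and 37.9% in shRBM10. Without sh-NC replicate 1 the adjusted p for SOS1 was 0.0594, and without any other library it lay between 0.00776 and 0.0442 (diffSpliceDGE).

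**Figure D5:**
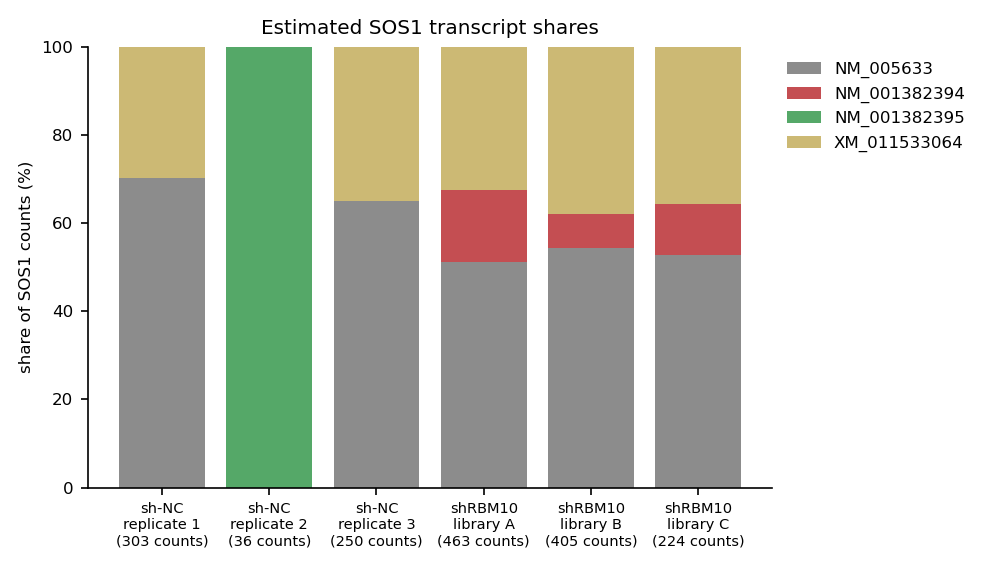
Share (%) of the estimated SOS1 counts assigned to each of 4 RefSeq transcripts in each library, with the SOS1 count under its name. NM_001382394 has counts in the 3 shRBM10 libraries and in no sh-NC library (16.3%, 7.78% and 11.5%), and sh-NC replicate 2, with 36 counts, is assigned wholly to NM_001382395.

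The remaining members did not pass this test, with adjusted p of 1 each. In PIK3R3, NM_003629 took 79.8%, 51.3% and 84.7% for sh-NC, against 87.7%, 91.3% and 90.7% for shRBM10, a separation without overlap. PIK3R3 passed only when sh-NC replicate 2 was left out (adjusted p = 0.00831, diffSpliceDGE). Its transcript NM_001328651 took 37.0% in that library and 6.63% or less in the others, and NM_001114172 took up to 12.1%. In AKT1, NM_001014431 took between 75.3% and 83.7% in every library and NM_001382430 between 4.95% and 17.0%. In AKT2, XM_011526614 took between 52.1% and 57.5% and XM_011526622 between 26.5% and 30.9%. The AKT genes had between 1835 and 3723 counts per library, the most of the 8 members.

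In PIK3CA, NM_006218 took between 33.8% and 52.2% and XM_006713658 the rest. The PIK3CB counts were divided among 6 transcripts, with XM_017006619 at between 14.0% and 65.2% and NM_006219 at between 18.0% and 24.7%. XM_011512895, XM_024453596, XM_006713659 and XM_024453597 took up to 16.2%, 19.9%, 29.9% and 20.8% of PIK3CB, each listed at 0 in at least 1 library. In PIK3R1, NM_181523 took between 0% and 81.8% and NM_001242466 between 0% and 59.6%. NM_181504, XM_017009586 and NM_181524 each had counts in 1 library only. With 5 to 105 counts per library, PIK3R1 was too shallow for its shares to be compared.

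The wider pathway was read from 13 role lists. They hold 90 genes that are not members, of which 86 were listed and 81 tested. None (0 of 81) passed the adjusted threshold by edgeR or limma-voom. DESeq2 called 5, all higher (PIK3C3, INPP4B, FRS2, SESN1 and RASGRP3), where it called 3.64% of all its genes as higher. At an unadjusted p under 0.05 edgeR gave 22 of 81, where 24.3% of all genes passed, and with the fold limit of 1 it gave 11 higher and 1 lower, which is 13.6% and 1.23% against 10.1% and 1.53% of all genes. The median log2 fold change of the 81 was 0.32, and 0.15 after the GC trends were removed. Over all genes it was 0.03 and -0.05. Of all genes 51.6% were above 0, the share to set beside the counts per list below. The count past the unadjusted limits was 4 higher and 0 lower once the GC trends were removed, where 2.1% of all genes were higher and 2.56% lower. It was 7 without sh-NC replicate 2, where 616 of 12795 genes were past these limits as higher and 197 as lower. Without library A it was 6, where 424 of 12716 genes were past them as higher and 150 as lower.

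Upstream of PI3K and SOS, 9 of 12 tested receptor adaptors had a log2 fold change above 0, of which 1 was past the unadjusted limits. It was FRS2, an adaptor of FGF receptors, with 122 ± 41.6 normalized counts in sh-NC and 320 ± 161 in shRBM10 (SD, n = 3), a log2 fold change of 1.39 ± 0.43 (adjusted p = 0.155, edgeR), or 0.62 after the GC trends were removed. SHC2, an adaptor of the SHC family, had 0.76 ± 0.34 and GAB2, a docking protein that binds PI3K, -0.71 ± 0.32, or 1.08 and -0.55 after GC removal. Among the RAS proteins, 3 were above 0 and 3 below, or 2 and 4 after GC removal. HRAS had 646 ± 97.9 and 361 ± 73.8 normalized counts (log2 fold change -0.84 ± 0.26, adjusted p = 0.156, edgeR) and NRAS had 0.83 ± 0.38 on the log2 scale, which turned to -0.10 once the GC trends were removed, while HRAS stood at -0.49. GC content was 65.8% for HRAS and 38.4% for NRAS.

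Of the exchange factors beside SOS1 and SOS2, the RASGRP genes had large differences at very low levels, and of 4 tested genes 2 were past the unadjusted limits as higher and 1 as lower. RASGRP3, which answers to diacylglycerol, had 8.61 ± 1.59 normalized counts in sh-NC and 35.0 ± 7.14 in shRBM10, with no overlap (log2 fold change 1.99 ± 0.36, adjusted p = 0.1, edgeR). It was 1.40 after the GC trends were removed. RASGRP1 had 1.74 ± 0.56 and RASGRP2 -1.32 ± 0.40, or 1.09 and -0.97 after GC removal. The list of RAS GTPase-activating proteins, which switch RAS off, also holds SPRED1, SPRED2 and SPRED3. All 11 of its genes had a log2 fold change above 0, as 51.6% of all genes did, and 9 of 11 after GC removal (median 0.53, then 0.31). The 2 then below 0 were SPRED1 (-0.10) and SPRED2 (-0.04). Of the 11, 1 was past the unadjusted limits. That gene was RASA2 (1.25 ± 0.42), followed by NF1 (1.22 ± 0.55) and RASA1 (1.03 ± 0.48). In each of these genes, RASA2 included, the groups overlapped before GC removal. After GC removal they stood at 0.46, 0.55 and 0.31. Of the RAF kinases, BRAF had 0.57 ± 0.35, or -0.14 after GC removal, and ARAF -0.34 ± 0.25, and 0 of 3 were past the limits.

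Among the other PI3K subunits, the class I genes were near 0, with PIK3CD at 0.09 ± 0.34 and PIK3R2 at -0.15 ± 0.24 on the log2 scale, and 3 others not listed. All 5 class II and III genes were above 0, and 2 were past the unadjusted limits. PIK3C2B was at 0.01 ± 0.28, and after the GC trends were removed 1 of the 5 was past those limits. PIK3C3, the class III kinase of endosomes and autophagy, had 89.8 ± 0.828 normalized counts in sh-NC and 334 ± 182 in shRBM10 (log2 fold change 1.89 ± 0.42, adjusted p = 0.130, edgeR). Its partner PIK3R4 had 1.25 ± 0.48 and PIK3C2G 0.93 ± 0.38. After the GC trends were removed PIK3C3 stood at 1.01, PIK3R4 at 0.72 and PIK3C2G at 0.15.

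Of the phosphatases and inhibitors that oppose the pathway, 5 of 8 were above 0 and 1 was past the unadjusted limits. INPP4B, which removes a phosphate from the lipid PI(3,4)P2, had 275 ± 114 and 669 ± 249 normalized counts (log2 fold change 1.28 ± 0.40, adjusted p = 0.156, edgeR), and 0.55 after GC removal. PIK3IP1, a membrane inhibitor of PI3K, had 109.7 ± 8.34 and 198 ± 67.2 (0.85 ± 0.32), and 0.99 after the GC trends were removed.

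Around AKT itself, 5 of 6 genes were above 0. RICTOR, a subunit of the mTORC2 complex that phosphorylates AKT, had a log2 fold change of 1.34 ± 0.49, and MLST8, shared by both mTOR complexes, had -0.83 ± 0.29. After GC removal these were 0.62 and -0.48. Downstream, 6 of 8 AKT substrates were above 0 and 1 was past the unadjusted limits. TBC1D4, a regulator of glucose transporter traffic, had 1.17 ± 0.46, GSK3A -0.62 ± 0.25 and the apoptosis factor BAD -0.72 ± 0.33. After GC removal these were 0.59, -0.55 and -0.35.

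Of the TSC and mTORC1 genes 3 were above 0 and 6 below, and 0 of 9 were past the limits. AKT1S1, an mTORC1 inhibitor, had -0.64 ± 0.25, the translation repressor EIF4EBP1 -0.64 ± 0.28 and the kinase RPS6KB1 0.87 ± 0.48, or -0.36, -0.28 and 0.09 after GC removal. Of 8 tested FOXO target genes 6 were above 0 and 2 were past the unadjusted limits. The cyclin gene CCNG2 had 235 ± 7.33 and 471 ± 76.8 normalized counts (1.00 ± 0.25), the stress gene SESN1 had 1.49 ± 0.42, and GADD45A had -0.66 ± 0.21. After GC removal CCNG2 stood at 0.31, SESN1 at 0.87 and GADD45A at -0.61.

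Over the 6 libraries, the AKT genes and the other members formed 2 sets. The 6 non-AKT members correlated with each other at r between 0.94 and 0.99 (log2 normalized counts), AKT1 with AKT2 at 0.97, and each AKT gene with each of the others at between -0.98 and -0.83. After the GC trends were removed the corresponding values were 0.84 to 0.99, 0.94, and -0.94 to -0.61. In those values sh-NC replicate 2 lay furthest from the mean of the 6 libraries for every member. Its log2 deviations ran from -0.67 (PIK3R3) to -1.87 (SOS2) for the non-AKT members, and were 0.42 for AKT1 and 0.17 for AKT2. Correlations without that library are not given here, so how far both sets rest on it was not tested. Among the 81 other pathway genes, the most alike was RICTOR for PIK3CA (r = 0.996), TSC1 for PIK3R1 (0.994), PIK3R4 for PIK3R3 (0.991), AKT1S1 for AKT1 (0.996), GSK3A for AKT2 (0.995), PHLPP2 for SOS1 (0.996) and TBC1D4 for SOS2 (1.00 when rounded). All these values come from the same 6 libraries, and such values are common in them. Between 10.3% and 17.8% of all genes tested had r over 0.9 with a given member.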

How the data were processed

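RNA-seq of 6 PC9 libraries was compared, 3 per group. The authors deposited estimated counts and TPM per gene (16306 genes) and per transcript (76563 RefSeq transcripts). The aligner and the counting tool are not given in the sources used here, and the submitters' processing notes name the build hg38. The FPKM columns, the authors' normalized counts and the TPM columns that match no sample title (14 columns in the gene table, 18 in the transcript table) and 8 columns of group means per table were not used. Estimated counts were rounded.

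The genes that passed filterByExpr were scaled by TMM and compared by edgeR's quasi-likelihood functions glmQLFit and glmQLFTest (version 4.0.16, with limma 3.58.1 in R 4.3.3) without covariates, at a Benjamini-Hochberg adjusted p under 0.05 over all genes tested and an absolute log2 fold change over 1. A normalized count is the count divided by the library size times its TMM factor, multiplied by the mean of these products. Total counts were 18786202, 18181904 and 18864243 for sh-NC (replicates 1 to 3), against 16606390, 18382455 and 18526148 for A to C. Ratios within a library used a pseudocount of 0.5. Transcript usage was tested with diffSpliceDGE. GC trends were fitted per library over 12569 genes (99.6% of those tested) with GENCODE 29 transcripts (mgcv 1.9.3). These transcripts were matched by Entrez gene number, or by symbol where that gave no match. The trends were added to the log library size as offsets, in place of the TMM factors. DESeq2 1.42.0, limma-voom, other scalings, filters and omission of each library were alternatives. Scripts were tested on simulated data.

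Genes named are the 8 members, RBM10, up to 3 other genes of smallest edgeR p in each role list, the list gene most correlated with each member, and member transcripts that took 10% or more of their gene in any library. The 5 genes that DESeq2 called were named after their values were seen. Some genes that this rule names are not reported here. The members and lists were chosen with earlier results of these data known.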

Additional observations from a re-analysis of the deposited data

How the results depend on the processing

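The log2 fold changes of all 8 members kept their sign under every alternative that could be run, and none passed the adjusted threshold under any. Their ranges over the alternatives were 0.45 to 1.63 for PIK3CA, 0.28 to 1.37 for PIK3CB, 0.58 to 1.82 for PIK3R1, 0.28 to 0.88 for PIK3R3, -0.79 to -0.35 for AKT1, -0.63 to -0.19 for AKT2, 0.17 to 1.37 for SOS1 and 0.77 to 1.91 for SOS2. PIK3R1 could not be fitted when at least 10 counts were required in every library. Library size alone moved the median of all genes by 0.131 on the log2 scale relative to TMM. Genes called over the whole table numbered 2, against 574 with DESeq2, 0 with library size only and 31 with no filter on low counts. They numbered 5 with GC trends removed, 170 with GC and length trends removed, and between 0 and 23 when 1 library was left out. At an unadjusted p under 0.05, with the fold limit kept, edgeR gave 1465. Members past both the adjusted p and the fold limit numbered 0, and 3 were past the fold limit at an unadjusted p under 0.05. The other pathway genes past the unadjusted limits numbered 12, against 4 with GC trends removed, 4 with GC and length trends removed, and between 6 and 18 when 1 library was left out. Members with a difference in transcript usage numbered 1, 0 when at least 10 counts were required in every library, where no SOS1 transcript was tested, and between 0 and 2 when 1 library was left out. The causes of the other differences were not tested. No paired analysis was possible because the columns carry a replicate number in only 1 shRBM10 library. Depth limits PIK3R1 and SOS2, with 5 and 13 counts in sh-NC replicate 2.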
